A study of Mus musculus with 12 samples.

Results

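Rab proteins form the largest family of small GTPases, switch proteins that bind GTP or GDP, and each Rab marks particular membranes of the cell. In the GTP form a Rab recruits effectors that move, tether or fuse vesicles, exchange factors load GTP, and GTPase-activating proteins return the Rab to its GDP form. In fibroblasts Rab5 and Rab21 act on early endosomes, Rab7 on late endosomes and lysosomes, Rab11 on recycling endosomes and Rab1 between the endoplasmic reticulum and the Golgi. USF2, a DNA-binding protein with a basic region, a helix-loop-helix and a leucine zipper, recognises the E-box CACGTG. The genes described here are all GRCm38 RefSeq protein-coding genes named Rab with a number and at most 1 letter, which gave 59 of the 21887 protein-coding genes on chromosomes 1 to 19, X and Y.

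USF2 binding was measured by ChIP-seq, the sequencing of DNA pulled down with an antibody, in wild-type mouse embryonic fibroblasts (MEFs). Of the 12 samples of the series, 4 are used here: 2 USF2 libraries from cells in normal culture (normal 1 and normal 2) and 2 from cells under glucose starvation (starved 1 and starved 2). The duration of starvation, the glucose level and the origin of the cells are not stated in the labels, and nothing there ties the 2 libraries of a condition to separate cultures; the replicate spread may therefore be technical. Peak lists hold no expression values, so the cell type was not checked against marker genes. Not analysed here were the inputs and the H3K27ac libraries.

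A Rab gene was called in a list when the summit of a USF2 peak lay inside it or within 1000 bp of either end. The lists held 1645 and 2124 peaks for normal culture and 825 and 1178 for starvation on these chromosomes, the narrowest peak being 152 bp wide in the normal and 306 bp wide in the starved lists. Reads at a summit were recovered from the deposited fold enrichment and p-value, with a median of 5 (normal 1), 6 (normal 2), 8 (starved 1) and 6 (starved 2). The lowest local background was 0.0979 reads for normal 1 and for normal 2, 0.131 for starved 1 and 0.133 for starved 2. Each value was divided by the narrowest peak width of its list, assumed to be the length a read covers. This gave 644 reads per Mb for either normal library, 428 for starved 1 and 434 for starved 2. The starved values were higher than the normal ones before this division and lower after it. Peak width and lowest background thus differed between the lists of the 2 conditions, and the direction for background rests on the assumed length. Their part in any difference between conditions was not tested. Where a list has no peak, the site was under the threshold of the authors' peak caller, and weaker binding there cannot be told from none.

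USF2 peaks sat at the annotated start of 4 Rab genes, and their sequences are shown because 3 of them hold an E-box beside the summits. Each run is 300 bases of GRCm38.p6 from RefSeq, from 250 bases before the start to 50 after it, 5′ to 3′ along the gene. Capitals mark CACGTG, which is its own reverse complement, so that a search of 1 strand covers both.
Rab21 (minus strand, chr10:115315542-115315841): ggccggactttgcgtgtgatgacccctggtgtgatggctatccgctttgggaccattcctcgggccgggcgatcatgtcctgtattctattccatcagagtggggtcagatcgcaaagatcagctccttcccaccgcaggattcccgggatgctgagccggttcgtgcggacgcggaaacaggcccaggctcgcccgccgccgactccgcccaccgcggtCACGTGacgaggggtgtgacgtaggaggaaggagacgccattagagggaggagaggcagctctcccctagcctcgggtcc
Rab24 (minus strand, chr13:55321931-55322230): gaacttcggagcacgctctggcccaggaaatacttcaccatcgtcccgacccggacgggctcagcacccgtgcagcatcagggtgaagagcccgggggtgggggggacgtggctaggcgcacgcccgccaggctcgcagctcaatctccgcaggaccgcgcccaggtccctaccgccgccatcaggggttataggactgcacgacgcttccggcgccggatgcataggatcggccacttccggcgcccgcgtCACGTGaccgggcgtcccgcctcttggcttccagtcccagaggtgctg
Rab5a (plus strand, chr17:53478984-53479283): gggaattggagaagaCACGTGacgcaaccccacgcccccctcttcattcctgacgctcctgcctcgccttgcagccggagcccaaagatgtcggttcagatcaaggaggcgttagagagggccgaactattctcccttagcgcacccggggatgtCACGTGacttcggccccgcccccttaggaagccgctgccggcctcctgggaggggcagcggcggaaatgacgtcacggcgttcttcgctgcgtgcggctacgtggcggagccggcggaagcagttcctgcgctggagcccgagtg
Rab31 (minus strand, chr17:65772703-65773002): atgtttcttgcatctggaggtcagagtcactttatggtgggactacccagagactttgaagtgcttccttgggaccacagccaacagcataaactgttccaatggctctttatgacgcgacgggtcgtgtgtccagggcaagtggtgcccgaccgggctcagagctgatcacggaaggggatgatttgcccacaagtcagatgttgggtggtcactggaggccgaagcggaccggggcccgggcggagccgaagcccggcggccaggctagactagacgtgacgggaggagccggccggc

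The E-box of Rab21 lay 28 bp before the start, that of Rab24 4 bp after it, and those of Rab5a 233 and 93 bp before it, each counted to the third base of the motif. The window of Rab31 does not contain these 6 letters. In Rab21, in Rab24 and in the E-box of Rab5a nearer to the start, CACGTG is part of the longer palindrome GTCACGTGAC, the letters of the CLEAR element known from promoters of lysosomal genes; it was searched for after these sequences had been seen. Of all 32851 promoters in the table, 7.15% held CACGTG and 0.326% held GTCACGTGAC.

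**Figure D1:**
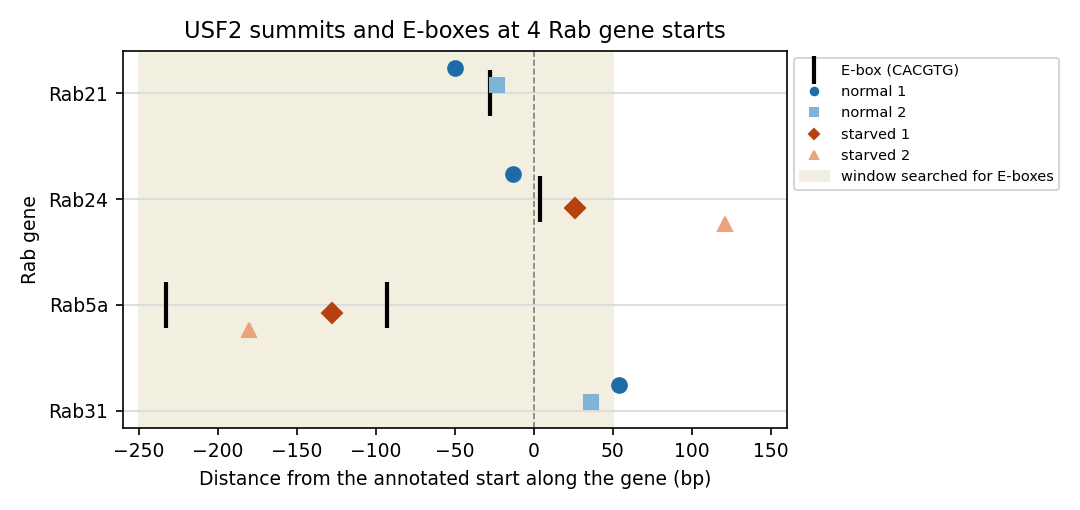
USF2 summits (symbols, one per list) and E-boxes (black bars) at 4 Rab genes, by distance in bp from the annotated start along the gene. The summits of Rab21 lie 50 and 23 bp before the start beside an E-box at 28 bp, and those of Rab31 lie 54 and 36 bp after the start in a window without an E-box.

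Rab21, a GTPase of early endosomes with a role in the traffic of integrins, carried the strongest USF2 peak of the family in each normal list. Its fold enrichment was 20.1 in normal 1 and 23.9 in normal 2, with no peak in either starved list. Fold enrichment, as given by the authors' peak caller, is the ratio of summit reads to local background with 1 read added to each. The summit held 25 reads (95% exact Poisson interval 16.2 to 36.9) in normal 1 and 30 (20.2 to 42.8) in normal 2; such intervals cover counting error only. By −log10 q the peak ranked 19 of 1645 and 7 of 2124. So both normal lists placed it among their strongest peaks, and the starved lists had none there. The peaks spanned chr10:115315531-115315753 and chr10:115315526-115315753, with summits 22 and 5 bp from the E-box. The annotated span of Rab21 reaches further upstream, to 115317419, so these summits are 1778 and 1805 bp from the end of the span although they are at the start given in the promoter table. The right edge of the peak was the same base in both normal lists. Without peaks that share an edge with the other list of their condition, a setting chosen after the data were seen, Rab21 had no call. Such an edge was found in 28.6% of all peaks of normal 1 and 22.2% of those of normal 2.

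Rab5a, which drives the fusion of early endosomes, showed the opposite pattern of calls. Its fold enrichment was 5.92 in starved 1 and 4.97 in starved 2, with 21 reads at the summit (95% exact Poisson interval 13.0 to 32.1) in each, and neither normal list had a peak. Its rank by −log10 q was 206 of 825 and 318 of 1178. The local background was 2.72 and 3.43 reads. With 1 read added to summit and background alike, these values give the fold enrichments above. The peaks (chr17:53478881-53479216 and chr17:53478911-53479221) had summits 128 and 180 bp before the start, between the 2 E-boxes and 35 and 53 bp from the nearest of them. Rab5b and Rab5c, its close relatives on early endosomes, had no call in any list.

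Rab31, which acts between the trans-Golgi network and endosomes, had 2 separate USF2 sites. At its start, fold enrichment was 10.04 in normal 1 (15 reads; chr17:65772623-65772812) and 6.90 in normal 2 (10 reads; chr17:65772612-65772837), with summits 54 and 36 bp after the start. The starved lists had no peak there. The other site lay 42779 bp into the gene in normal 2 (fold enrichment 4.76, 8 reads) and 42778 bp into it in starved 2 (7.18, 8 reads), so that the summits differed by 1 base across conditions. Neither normal 1 nor starved 1 had this second peak.

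Rab24, linked to autophagy, was called in 3 lists. Fold enrichment was 9.25 in normal 1 (11 reads), 4.53 in starved 1 (8 reads) and 4.59 in starved 2 (10 reads), while normal 2 had no peak. The rank by −log10 q was 209 of 1645, 769 of 825 and 849 of 1178, so the starved peaks were among the weaker ones of their lists. The 95% exact Poisson intervals of the 3 read counts were 5.49 to 19.7, 3.45 to 15.8 and 4.80 to 18.4. Local background was 0.297 reads in normal 1, 0.988 in starved 1 and 1.40 in starved 2. The read counts were not scaled between lists, so their intervals do not compare binding between conditions. Summits lay 13 bp before the start in normal 1 and 26 and 121 bp after it in the starved lists, 17, 22 and 117 bp from the E-box. The peaks covered chr13:55321732-55322053 in all. Prelid1, which moves phospholipid inside mitochondria, has an end 62 to 196 bp from the same summits, so the region cannot be assigned to 1 of the genes. Both starved peaks ended at the same base, and without peaks that share an edge Rab24 was called in normal 1 alone.

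The other 4 called members had peaks of 3 to 11 reads. Rab27b, a GTPase of secretory granule and exosome release, was called in both starved lists with fold enrichments of 5.21 and 4.36, at summits 35200 and 35203 bp from an end of its span. Only 5 and 4 reads were found at those summits, and neither normal list had the peak. Rab20, which acts on endosomes and phagosomes, had a peak in starved 2 alone (6.81, 11 reads), 680 bp after its start. Rab25, an epithelial relative of Rab11, had a peak in normal 2 alone (5.46, 5 reads), 682 bp after its start. Rab8b, which acts in traffic from the Golgi to the cell surface, had a peak in normal 2 alone (3.57, 3 reads), 12643 bp after its start and ranked 1983 of 2124. These last 3 were seen in 1 library each and so have no replicate.

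**Figure D2:**
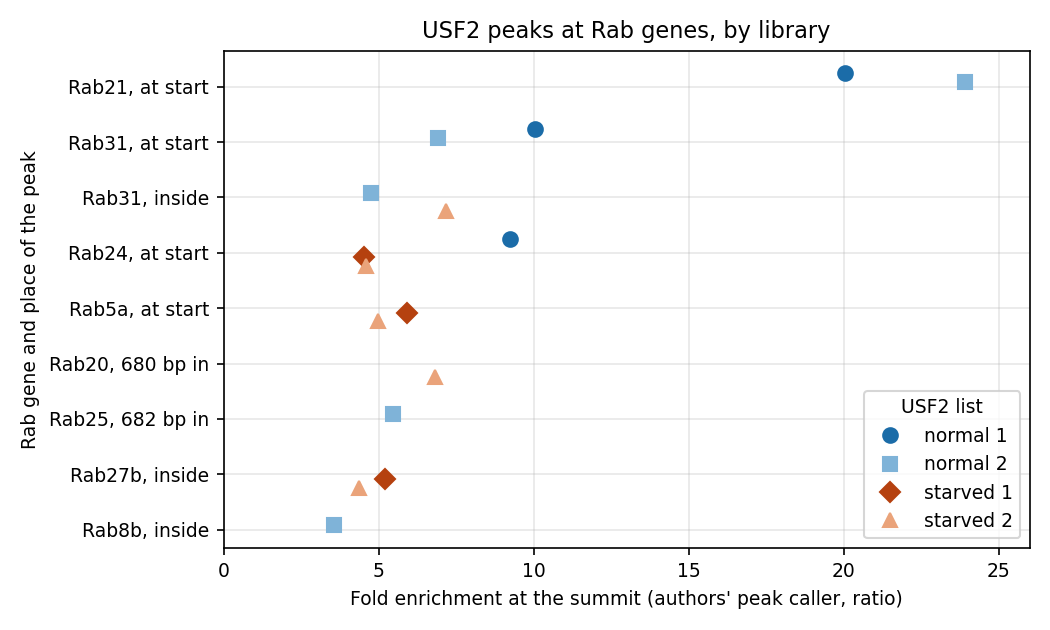
Fold enrichment at the summit (horizontal axis, ratio from the authors' peak caller) of every USF2 peak at a Rab gene, one symbol per list. Values belong to their own list; in normal 1 and normal 2 Rab21 stands at 20.1 and 23.9, and the next Rab peaks of those lists, both at Rab31, at 10.04 and 6.90.

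Counted over the family, 3 of 59 Rab genes (5.08%) were called in normal 1, against 5.46% of the 21828 other protein-coding genes, and 4 (6.78%) in normal 2, against 6.5%. In starved 1 there were 3 (5.08%, against 3.23%) and in starved 2 there were 5 (8.47%, against 4.09%). Both normal lists called Rab21 and Rab31 (3.39%, against 4.08% of other genes). Both starved lists called Rab5a, Rab24 and Rab27b (5.08%, against 2.47%). In each of these genes the peaks of the 2 lists overlapped. No Rab gene was called in all 4 lists, against 1.35% of other genes, and 8 were called in at least 1 list (13.6%, against 10.4%). In the normal lists the family's share was thus close to the background, and the higher shares in the starved lists stand for 3 and 5 genes. The share in both starved lists came down to 1 gene, Rab5a, with peaks of −log10 q of at least 5 (1.69%, against 1.5% of other genes) and with each list cut to its 825 best peaks (1.69%, against 2.19%). Because the members were chosen on these calls, the shares are a description and were not tested.

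Longer genes can collect more summits by their length. The median span was 23213 bp for Rab genes and 17140 bp for other protein-coding genes. With summits counted at gene ends alone, 2 Rab genes were called in normal 1 (3.39%, against 2.54% of other genes), 2 in normal 2 (against 2.68%), 2 in starved 1 (against 2.01%) and 3 in starved 2 (5.08%, against 2.3%). Both normal lists called 1 (Rab31; 1.69%, against 2.19%), both starved lists 2 (3.39%, against 1.78%) and all 4 lists none (against 1.13%). In at least 1 list there were 5 such genes, Rab5a, Rab20, Rab24, Rab25 and Rab31 (8.47%, against 4.04%). Rab21 drops out under this rule, since its summits are over 1000 bp from the end of its span.

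**Figure D3:**
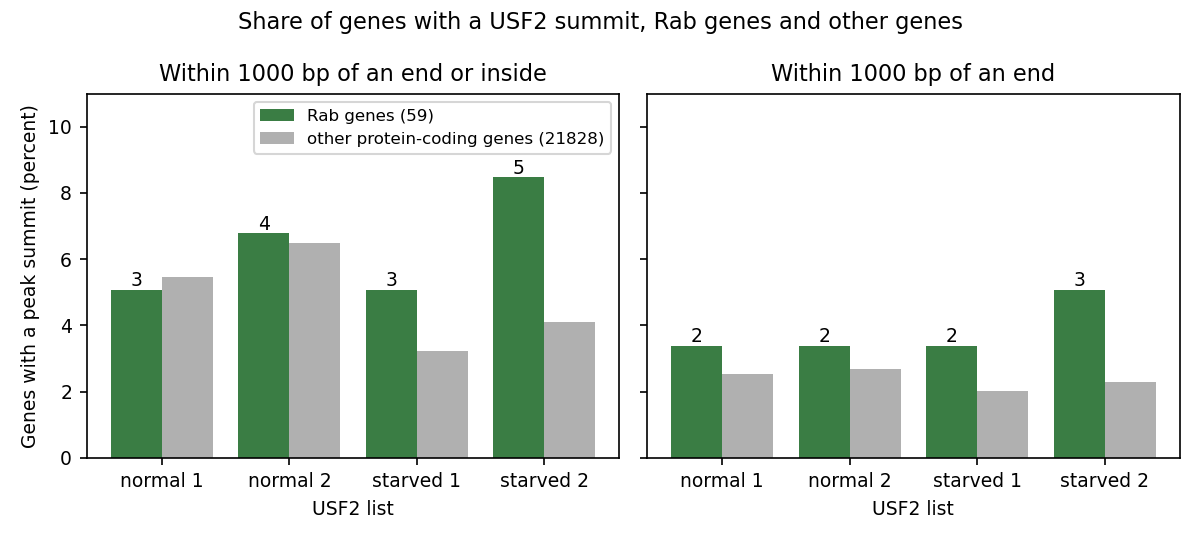
Percent of Rab genes (green, with the number of genes above each bar) and of other protein-coding genes (grey) with a USF2 summit in each list, within 1000 bp of an end or inside (left) and within 1000 bp of an end (right). On the left the bars of the normal lists are close (5.08% beside 5.46%, 6.78% beside 6.5%), and those of the starved lists stand for 3 and 5 Rab genes.

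The number of Rab genes called per list was 3.5 ± 0.707 (SD, n = 2) in normal culture and 4 ± 1.41 (SD, n = 2) under starvation. The 2 ranges overlap, and the difference was 0.5 genes. The two-sided exact permutation p was 1, but the 6 ways to label 2 against 2 lists allow no p under 0.33 and the members were chosen on these calls, so this p does not show whether the conditions differ. The difference turned to −0.5 without starved 2 and with peaks of −log10 q of at least 5.

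By site of action, set beside the 10.4% of other protein-coding genes called in any list, 4 of 7 Rab genes of early endosomes had a call in some list (Rab5a, Rab20, Rab21 and Rab31), and Rab5b, Rab5c and Rab22a had none. Of 11 genes of late endosomes, lysosomes and related organelles only Rab24 was called, and Rab7, Rab7b, Rab9, Rab9b, Rab12, Rab29, Rab32, Rab34, Rab36 and Rab38 were not. Of 13 recycling and post-Golgi genes Rab8b and Rab25 were called, each in 1 list, and Rab4a, Rab4b, Rab8a, Rab10, Rab11a, Rab11b, Rab13, Rab14, Rab15, Rab17 and Rab35 were not. Of 9 genes of regulated secretion only Rab27b was called, and Rab3a, Rab3b, Rab3c, Rab3d, Rab26, Rab27a, Rab37 and Rab44 were not. None of 14 genes acting at the endoplasmic reticulum and Golgi (Rab1a, Rab1b, Rab2a, Rab2b, Rab6a, Rab6b, Rab18, Rab19, Rab30, Rab33a, Rab33b, Rab39, Rab39b and Rab43) had a call, nor did the 5 remaining genes, Rab23, Rab28, Rab40b, Rab40c and Rab42. The sites were assigned with earlier results known, and many Rab proteins act at several of them.

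At the edge of the window, the gene-end summits farthest from an end were those of Rab25 (682 bp) and Rab20 (680 bp). The nearest genes outside were Rab19 and Rab3b. A USF2 peak 2965 to 3019 bp before Rab19, a GTPase of the Golgi, was in all 4 lists, with fold enrichments of 8.16 and 10.6 in normal culture and 10.3 and 12.2 under starvation (12, 12, 17 and 19 reads). That summit lies within reach of Slc37a3 and so counts for this neighbouring gene. With a window of 5000 bp Rab19 would be the only Rab gene called in all 4 lists (1.69%, against 1.57% of other genes). Near Rab3b a single peak, in normal 1, lay 3909 bp away (4.24, 4 reads).

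The E-box was then counted over the family, independent of peaks. Promoters were matched for 48 of 59 Rab genes (60 promoters), and 6 of the 60 (10%) held CACGTG, against 7.84% of the 21263 promoters of protein-coding genes. Besides Rab5a, Rab21 and Rab24 these were Rab20 (44 bp before the start), Rab23 (216 bp before) and Rab27a (244 bp before). Rab23 and Rab27a had no USF2 call, and the summit at Rab20 lay 724 bp from its E-box. Of 4 Rab promoters with a summit inside the window 3 held CACGTG, and of the other 56 also 3 did (5.36%). Over protein-coding genes, 68.5% of the 542 promoters with a summit in the window in any list held it, and 91.9% of the 136 with a summit there in all 4 lists. The palindrome GTCACGTGAC was present in 3 of the 60 Rab promoters (5%), those of Rab5a, Rab21 and Rab24, against 0.419% of promoters of protein-coding genes. Of the 542 promoters with a summit in the window in any list, 12% held it. The palindrome was read from the Rab21 promoter itself, so its count in Rab promoters is a description and was not tested.

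Genes that control Rab proteins or act as their effectors were counted the same way, as a description without a test. Of 157 measured exchange factors, GTPase-activating proteins, prenylation and delivery factors and effectors, 13 (8.28%, against 4.08% of protein-coding genes other than Rab genes) were called in both normal lists and 14 (8.92%, against 2.47%) in both starved lists. All 4 lists called 8 of them (5.1%, against 1.35%). At gene ends alone both normal lists called 9 (5.73%, against 2.19%) and both starved lists 9 (5.73%, against 1.78%).

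Among 49 exchange factors, 5 (10.2%) were called in both normal and 7 (14.3%) in both starved lists. The shares of protein-coding genes other than Rab genes were 4.08% and 2.47%. At gene ends alone both normal lists called 4 (8.16%, against 2.19%) and both starved lists 5 (10.2%, against 1.78%). Hps1, part of the exchange factor of Rab32 and Rab38, had fold enrichments of 17.0 in normal 1, 16.4 in normal 2, 11.4 in starved 1 and 14.8 in starved 2. Ric1, which activates Rab6 with Rgp1, had 10.5, 13.2, 12.9 and 13.2 in the same order. The subunits of the TRAPP complex, the exchange factor of Rab1 and its relatives, included Trappc6a (10.03, 10.03, 13.6 and 10.8; region shared with Bloc1s3) and Trappc8 (6.44, 5.75, 4.92 and 4.76). Rab3il1, an exchange factor of Rab8, had 15.7, 15.1, 6.05 and 7.25, at summits inside the gene, 16484 to 16497 bp from an end. These 5 genes were called in all 4 lists. Trappc2l (4.49 and 6.59, region shared with Galns) and Dennd6a, which activates Rab14 (6.14 and 7.49), were called in the starved lists alone. The Dennd6a summits lay inside the gene, 5648 and 5608 bp from an end. With −log10 q of at least 5 Trappc8 and Trappc2l were no longer called in both starved lists.

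Among 57 effectors, Rabep1 was called in all 4 lists and had the highest fold enrichment of the effectors in both normal lists, while Rufy1 was higher in both starved lists. Rabep1 encodes rabaptin-5, a partner of Rab5. It had 19.2 and 18.4 in normal culture and 6.85 and 7.93 under starvation, with summits at most 39 bp from the gene end. Osbpl1a, a sterol-binding partner of Rab7 (9.08 and 8.43), and Rab11fip1, a partner of Rab11 (7.94 and 7.93), were called in both normal lists and in neither starved list. Gorasp1, a Golgi stacking protein, had 7.60 and 9.88 in the normal lists and 4.70 in starved 1, in a region shared with Ttc21a. Rufy1, a partner of Rab4 on early endosomes (7.36 and 8.62), the Golgi tether Golgb1 (4.42 and 4.41) and Wdr44, which binds Rab11 (4.34 and 4.41), were called in both starved lists and in neither normal list. Golgb1 and Wdr44 had only 4 reads at each summit. Their summits lay inside the genes, 21039 and 21041 bp (Golgb1) and 17975 and 17923 bp (Wdr44) from an end. With −log10 q of at least 5 neither was called.

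Among 40 GTPase-activating proteins, Tbc1d13, which acts on Rab35 (8.99 in each normal list, then 4.70 and 6.73), and Tbc1d5, which acts on Rab7 (6.90, 7.53, 10.04 and 9.11), were called in all 4 lists. These Tbc1d5 summits lay inside the gene, 1863 to 1945 bp from an end, and at gene ends alone Tbc1d5 was not called. Peaks at Tbc1d5 reached from chr17:50765871 to 51179541, so they held more than 1 site. Tbc1d9b (5.47 and 5.46) was called in both normal lists alone, with 5 reads at each summit, inside the gene at 15680 and 15746 bp from an end. Tbc1d20, which acts on Rab1 (5.68 and 4.15), was called in both starved lists alone. With −log10 q of at least 5 neither Tbc1d9b nor Tbc1d20 was called in any list, and Tbc1d13 was no longer called in both starved lists. Of 11 genes of prenylation, delivery and phosphorylation 1 was called in any list (9.09%, against 10.4% of protein-coding genes other than Rab genes). This was Ppm1h, a phosphatase of Rab proteins, in both normal lists (5.65 and 8.16). Its summits lay inside the gene, 79058 bp from an end. At −log10 q of at least 5 Ppm1h was no longer called in both normal lists. The Rab escort protein genes Chm and Chml had no call.

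**Figure D4:**
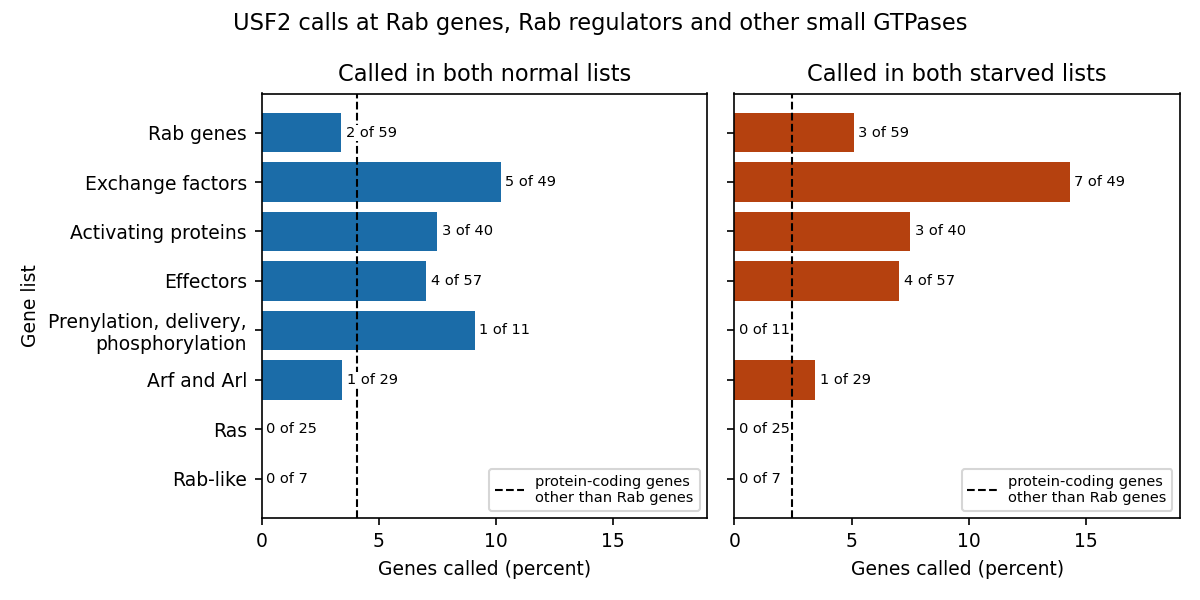
Percent of genes with a USF2 call in both normal lists (left) and both starved lists (right) for Rab genes, 4 lists of Rab regulators and effectors and 3 other lists of small GTPases; labels give called of measured genes. The dashed line is the share of protein-coding genes other than Rab genes (4.08% and 2.47%), and exchange factors reach 10.2% and 14.3%.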

How the data were processed

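The 4 USF2 libraries each had their own peak list, called per library. Bowtie2 2.5.1, MACS2 2.2.7.1, deepTools 3.5.1 and the build GRCm38 are named, without parameters, per the submitters' processing notes; whether inputs served as controls is not given in the sources used here. The deposited fold enrichment is a ratio of summit reads to local background, with a single read added to each. The −log10 p and −log10 q columns, deposited by the authors, come from the same caller. The score column in the deposited lists equals −log10 q times 10 without its decimals, as checked on the files, and was not used further. Summits are the peak start plus the deposited offset.

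From these, calls at genes were counted with Python 3.11.15, pandas 2.3.3, numpy 2.4.6 and scipy 1.17.1. Gene spans and promoters came from RefSeq GRCm38.p6; the tables used here give no exons, so exonic, intronic and UTR positions are not stated. Reads at a summit were the whole number whose fold and Poisson tail matched the deposited values, all within 0.001 on the −log10 scale. The 8 peaks of starved 2 outside the assembled chromosomes were left out. No fold change between lists was computed. The steps were tested on simulated data.

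The Rab genes and the lists of sites, regulators, effectors and other GTPases were chosen with earlier results of these data known; 3 listed symbols were not in the gene table. Certain genes and 1 gene list are not reported here. Named were all called Rab genes and, of other lists, the genes called in both lists of a condition. Alternatives were other windows, gene ends alone, any peak overlap, −log10 q of at least 5, lists cut to the 825 best peaks, other E-box motifs and leaving out each library.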

Additional observations from a re-analysis of the deposited data

How the results depend on the processing

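Counts of Rab genes are small, so 1 gene often moves them by over 1.5 times; the cause of each change below was not tested beyond the setting itself. With a window of 5000 bp normal 1 called 5 Rab genes (8.47%, against 6.33% of other genes). In all 4 lists 1 gene (Rab19) was called (1.69%, against 1.57%). The difference between starved and normal lists was then 0, for which the exact permutation test can give only p = 1. At gene ends alone normal 2 called 2 (3.39%, against 2.68%) and starved 2 called 3 (5.08%, against 2.3%). Both normal lists called 1 (1.69%, against 2.19%) and any list 5 (8.47%, against 4.04%). With −log10 q of at least 5 normal 1 called 3 (5.08%, against 2.3% of other genes), normal 2 called 2 (3.39%, against 2.86%), starved 1 called 1 (1.69%, against 1.8%), starved 2 called 3 (5.08%, against 1.99%), both starved lists 1 (1.69%, against 1.5%) and any list 5 (8.47%, against 4.19%), and the starved minus normal difference was −0.5 genes. With lists cut to 825 peaks normal 2 called 2 (3.39%, against 3.19%), starved 2 called 3 (5.08%, against 3.17%) and both starved lists 1 (1.69%, against 2.19%), so the share in both starved lists fell below that of other genes. Without peaks that share an edge, added after the data were seen, both normal lists called 1 (1.69%, against 2.64%). Leaving out 1 library, the difference ranged from −0.5 (without starved 2) to 1.5 (without starved 1), with 0 without normal 1 and 1 without normal 2. The count for both normal lists, where 1 list then decides, was 3 without normal 2 (5.08%, against 5.46%) and 4 without normal 1 (6.78%, against 6.5%). That for both starved lists was 3 without starved 2 (5.08%, against 3.23%) and 5 without starved 1 (8.47%, against 4.09%). Without normal 2 (Rab24) or starved 1 (Rab31) 1 gene was called in all remaining lists, otherwise 0, and any list gave 6 to 8. Shares of other genes were not counted for these last combinations. Of regulators and effectors, both starved lists called 9 at gene ends alone (5.73%, against 1.78%) and 8 with −log10 q of at least 5 (5.1%, against 1.5%), and both normal lists called 9 (against 2.19%) and 11 (7.01%, against 1.93%). CANNTG was in 41 of 60 Rab promoters (68.3%, against 69% of promoters of protein-coding genes) and GTCACGTGAC in 3 (5%, against 0.419%). The windows of 500 bp and any peak overlap changed no count by over 1.5 times. Differences in calls between replicate numbers were hardly correlated across conditions (r = 0.0245 over 21887 genes). As most genes had no call, this r cannot tell whether the libraries were paired. With a replicate block the starved minus normal difference was 0.5 (exact permutation test within pairs, p = 1). As normal 1 and starved 1 each called 3 Rab genes, every relabeling within pairs gave a difference of this size. This p was therefore fixed in advance and does not show whether the conditions differ. Single peaks rest on 3 to 30 reads, which limits any single call.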

Other observations

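Other families of small GTPases were counted in the same lists, with no test. Of 29 Arf and Arl genes, which act in vesicle budding and organelle transport, Arl2, a regulator of tubulin folding, was called in both normal lists (fold enrichment 11.04 and 12.8) and both starved lists (12.5 and 8.23). Arl15 had a peak in starved 2 alone (3.53). Of 25 Ras genes Rras2 had a peak in normal 2 alone (5.28), and none of 7 Rab-like genes was called. Background shares were 4.08% for both normal lists, 2.47% for both starved lists and 10.4% for any list. In any list 6.9% of Arf and Arl, 4% of Ras and 0% of Rab-like genes were called.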
